A study of Drosophila melanogaster with 6 samples.

Results

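A set of 358 Drosophila genes, of 17807 in the deposited table, was counted at very low levels in wild-type pupal brains and at clearly measurable levels in brains of the Tet mutant TetAXXC. The genes were selected on measured values of these same libraries. A gene's counts were divided by the total of its library and scaled to a library of 1000000 counts (CPM), and a gene was kept when its WT mean was under 1 CPM and its TetAXXC mean was 5 CPM or more. These limits were passed by 379 genes, and 21 of them were left out by name, mainly 9 long non-coding RNAs and 4 genes of the Mst series. Since the difference between genotypes chose the genes, it is given here as a description without a test.

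The study compared brains dissected from Drosophila melanogaster pupae 24 h after puparium formation, with 3 RNA libraries from WT flies and 3 from TetAXXC flies. The series addressed axon guidance and glutamatergic signalling in early brain development. The TetAXXC stock carries designed mutations in the CXXC zinc finger, by which Tet binds DNA, and they were introduced by CRISPR/Cas9 cutting and homology-directed repair in a nos-Cas9 stock. The DsRed selection marker was later excised with piggyBac. Both genotypes were raised at the same temperature on standard food with no other agent. The labels give no further genotype, strain or sex for WT, and do not say from how many edited founders the TetAXXC stock came. Per the labels 30 brains per genotype were collected and replicates were independent, but it is not stated whether the 30 brains were shared among the 3 libraries of a genotype. If they were, the spread between libraries given below does not measure the spread between pools of brains.

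As background, spermatogenesis in Drosophila uses a large set of genes that are transcribed almost only in primary spermatocytes, under meiotic arrest proteins that include testis forms of general transcription factors. Many of these genes are copies of widely used housekeeping genes, so that male germ cells have their own translation factors, mitochondrial import proteins and metabolic enzymes. Late spermatids then pack their DNA with protamines, build an axoneme and a long tail, and a few genes, the comet and cup genes, are transcribed after meiosis. The testes of male pupae already hold spermatocytes.

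The libraries held between 17861742 and 19521285 counts, so that 1 count equals 0.0512 to 0.056 CPM. Markers of the labelled tissue were abundant. The neuronal gene elav had between 8084 and 9873 counts in every library and the glial gene repo between 2665 and 3170. Of the deposited genes, 11198 were tested with edgeR's quasi-likelihood test with Benjamini-Hochberg adjustment. In that test 12.1% were called higher in TetAXXC and 3.17% lower at an adjusted p under 0.05, and in 21.4% every TetAXXC library lay above every WT library.

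The 358 genes together took 384, 117 and 103 CPM in WT replicates 1, 2 and 3, and 5145, 1527 and 2210 CPM in TetAXXC replicates 1, 2 and 3. Values of the 3 libraries of a genotype are given in this order throughout. The summed level was thus 14.7 times higher in TetAXXC by the group means, and the lowest TetAXXC library lay well above the highest WT library. Even at this level the genes were a small part of the brain transcriptome, with 0.514%, 0.153% and 0.221% of all counts in the TetAXXC libraries. The 21 genes left out by name had sums of 24.2, 6.31 and 5.93 CPM in WT and 341, 89.3 and 143 CPM in TetAXXC, with the same order of libraries.

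**Figure D1:**
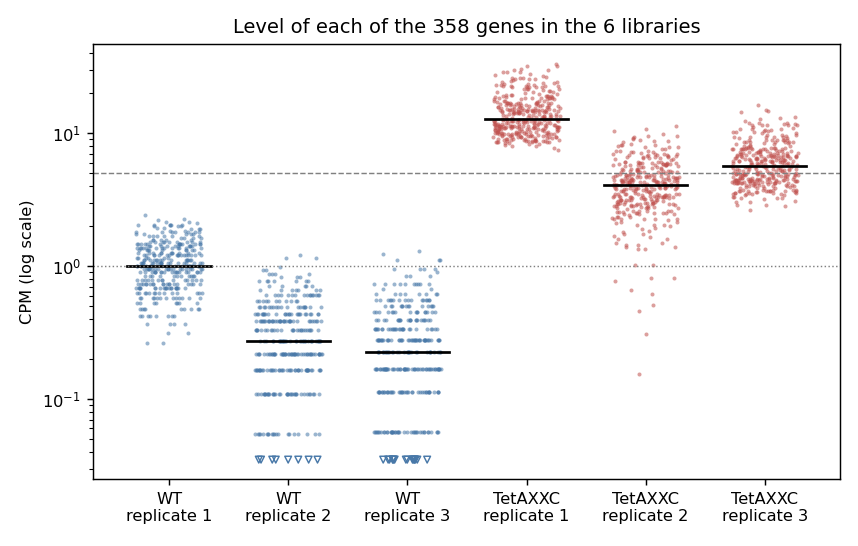
Level of each of the 358 genes in CPM (log scale) in the 6 libraries, with the median of a library as a black bar, open triangles for genes at 0, and dotted and dashed lines at the limits of 1 and 5 CPM that apply to group means. WT replicate 1 has a median of 1.00 CPM, above the medians of 0.274 and 0.224 CPM in the other WT libraries, and TetAXXC replicate 1 has a median of 12.8 CPM, above 4.05 and 5.62 CPM.

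The plot of levels by library shows that neither group was uniform. In WT replicate 1 the median gene stood at 1.00 CPM and 194 of the 358 genes were at 1 CPM or more, whereas 3 genes were in WT replicate 2 and 5 in WT replicate 3. In TetAXXC replicate 1 no gene was under 5 CPM, but 255 were in replicate 2 and 148 in replicate 3. The description "near silent" therefore holds for the group mean and for WT replicates 2 and 3, and less for WT replicate 1. The limits were passed in every single library by 7 genes, namely sinah, CG4983, CG13008, CG32445, CG34425, CG4714 and CG15025. Of these, sinah, a relative of the ubiquitin ligase gene sina, had 0.947, 0.494 and 0.504 CPM in WT and 22.4, 7.89 and 10.4 CPM in TetAXXC.

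No gene of the set was without counts in all WT libraries. The WT counts of a gene, summed over the 3 libraries, ran from 10 to 55 with a median of 31. At 0 counts were 8 genes in WT replicate 2 and 16 genes in WT replicate 3. The ratio of the TetAXXC mean to the WT mean ran from 5.04 to 78.6, with a median of 14.9. In 352 of the 358 genes every TetAXXC library lay above every WT library, where 21.4% of all genes tested did, and nothing is read from this because the rule used the same contrast. The 6 genes whose groups overlapped were CG34434, CG5043, CG12493, CG3927, nsr and tbrd-2, and in each of them TetAXXC replicate 2 had between 3 and 28 counts. For the same reason the edgeR calls only restate the choice. Of 356 genes that passed the filter on low counts, 343 were called higher, where 12.1% of all genes were. Their adjusted p ran from 0.00495 to 0.102 with a median of 0.0198. CG34434 and nsr did not pass the filter. The number called changed with the libraries used. Leaving out WT replicate 2 left 1 call, leaving out WT replicate 3 also left 1, and leaving out TetAXXC replicate 3 left 207. The test limma-voom called 1. The share of all genes that these other fits called is not given here. It is therefore open whether they called fewer genes in the whole table as well.

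Near the limits the set has no natural edge. Just inside the WT limit lay CG31174, CG33278 and CG32444 with WT means of 0.9997, 0.994 and 0.978 CPM, and just outside it ms(2)34Fe, CG3517 and CG7742 with 1.002, 1.004 and 1.008 CPM. Inside the TetAXXC limit lay CG7208, CG32106 and CG3306 with TetAXXC means of 5.01, 5.01 and 5.02 CPM, and outside it CG4955, gom and CG5139 with 4.99, 4.98 and 4.97 CPM. A further 166 genes had a WT mean of 1 CPM or more and a TetAXXC mean at least 5 times as high.

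The 12 genes of the set with the highest TetAXXC mean, with no correction for gene length, were CG4631, CG3330, CG17098, CG13991, Tpl94D, CG32591, CG42820, CG1988, CG31907, Dpy-30L2, CG31468 and CG8517. Their TetAXXC means ran from 19.2 to 15.4 CPM. Most are listed in the deposited table by a CG number alone, as are 271 of the 358. In the Ensembl annotation CG1988 and CG31907 bear the newer names Mst84B and Mst27D, of the kind that the rule left out by name. CG4631 (FBgn0032590, chromosome 2L, 16607370 to 16610037, plus strand), the first of these, was counted 35, 8 and 9 times in WT and 611, 210 and 273 times in TetAXXC. CG3330 (FBgn0039511, chromosome 3R, 27329693 to 27330882, minus strand) was counted 32, 6 and 11 times in WT and 607, 219 and 243 times in TetAXXC. In both genes replicate 1 was the highest library of its group, and the groups did not overlap.

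A role was assigned to 73 of the 358 genes from their names and textbook knowledge, after their values had been seen. They are taken here from the spermatocyte to the mature sperm, followed by the enzymes and transporters. All 73 belong to the set by its rule, so that only their levels and the spread between libraries are described.

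Spermatocyte transcription was represented by tbrd-1 and tbrd-2, testis-specific bromodomain proteins that work in spermatocytes. The gene tbrd-1 (chromosome 3R, 23891597 to 23893560) was counted 11, 2 and 1 times in WT and 260, 12 and 122 times in TetAXXC. Its partner tbrd-2 (chromosome 2R, 19259909 to 19262294) was counted 13, 0 and 0 times in WT and 190, 6 and 117 times in TetAXXC. Both were high in TetAXXC replicates 1 and 3 and low in replicate 2, which for tbrd-2 lay below WT replicate 1.

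Sperm chromatin was represented by 4 genes. The transition protein-like gene Tpl94D (chromosome 3R, 22966284 to 22967842) was counted 37, 8 and 6 times in WT and 571, 179 and 211 times in TetAXXC. Prtl99C, a protamine-like gene, was counted 23, 3 and 3 times in WT and 238, 84 and 98 times in TetAXXC. In both, TetAXXC replicate 1 was far above the other libraries of its group. The protamine genes ProtA and ProtB are neighbouring copies on chromosome 2L between 14879050 and 14883721, so that reads may have been split between them or dropped. ProtA was counted 38, 9 and 3 times in WT and 320, 112 and 171 times in TetAXXC, and ProtB was counted 12, 14 and 6 times in WT and 486, 171 and 90 times in TetAXXC. The proportion of the copies changed between libraries, with ProtB the more counted in TetAXXC replicates 1 and 2 and ProtA in replicate 3, and these values are uncertain.

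The axoneme and tail group held 13 genes with TetAXXC means from 5.17 to 11.6 CPM. It included the structural genes Tektin-A and Tektin-C, the radial spoke genes CG3121 (Rsph4a) and CG31803 (Rsph9), the inner dynein arm light chain gene Dnali1, the dynein arm assembly gene Zmynd10, and the tubulin-modifying ligase genes TTLL1B and TTLL6A. Also in it were gudu, goddard and CG17083 (wampa), which sperm formation needs, and djl, a relative of the sperm tail gene don juan. Tektin-A was counted 29, 4 and 13 times in WT and 268, 88 and 108 times in TetAXXC. CG3121 was counted 12, 5 and 3 times in WT and 284, 85 and 113 times in TetAXXC. The groups of both were apart, and replicate 1 was the highest in each. Pkd2, a cation channel of the sperm tail, stood out with 347, 16 and 202 counts in TetAXXC against 10, 7 and 6 in WT. Zmynd10, with 200, 26 and 110 counts in TetAXXC and 15, 15 and 6 in WT, was also low in TetAXXC replicate 2. Summed over the group, the level was 13.3, 5.65 and 4.65 CPM in WT and 181, 47.8 and 77.9 CPM in TetAXXC.

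Of the comet and cup genes, whose transcripts collect at the ends of spermatid tails, 4 were in the set, namely schuy, boly, wa-cup and c-cup. The gene schuy was counted 15, 4 and 4 times in WT and 242, 90 and 123 times in TetAXXC, and wa-cup was counted 14, 0 and 2 times in WT and 217, 80 and 65 times in TetAXXC. The ratio of TetAXXC replicate 1 to replicate 2 in these genes lay between 2.74 and 3.30, a narrow range.

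The translation group held 7 genes, among them 4 forms of the cap-binding factor eIF4E. eIF4E3, which meiosis and cytokinesis of spermatocytes need, was counted 14, 3 and 5 times in WT and 354, 57 and 213 times in TetAXXC. eIF4E4 was counted 41, 5 and 5 times in WT and 366, 113 and 158 times in TetAXXC, whereas eIF4E7 was counted 10, 3 and 0 times in WT and 228, 58 and 111 times in TetAXXC. All TetAXXC libraries were above the WT libraries in these genes, and replicate 2 was the lowest of them. The initiation factor subunit eIF3d2 and the ribosomal protein gene RpL10Aa had TetAXXC means of 6.33 ± 4.08 and 6.31 ± 3.94 CPM (SD, n = 3). RpL22-like, the germline form of a large-subunit ribosomal protein, was counted 12, 1 and 3 times in WT and 163, 15 and 119 times in TetAXXC.

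Energy metabolism was the largest role group with 15 genes. They covered glycolysis (Ald2, Pglym87, CG9961, CG7069, CG2964), sugar phosphate conversion (Pgm2b), the citric acid cycle (mAcon2, Fum3, Fum4, Scsalpha2), the respiratory chain (SdhAL, CG6629, Cyt-c1L) and the glycerophosphate shuttle (Gpo2, Gpo3). Gpo3, a mitochondrial glycerophosphate oxidase, was counted 23, 4 and 10 times in WT and 493, 141 and 159 times in TetAXXC. The aconitase gene mAcon2 was counted 23, 10 and 5 times in WT and 439, 140 and 162 times in TetAXXC, and SdhAL, a succinate dehydrogenase flavoprotein gene, was counted 11, 1 and 1 times in WT and 218, 55 and 75 times in TetAXXC. Replicate 1 was the highest library of its group in all of these. The ratio of TetAXXC replicate 1 to replicate 2 stayed between 2.03 and 4.49 in the 15 genes.

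Genes for mitochondrial import and carriers made up a group of 6. The import receptor gene tomboy20 was counted 19, 1 and 2 times in WT and 216, 60 and 77 times in TetAXXC, and the channel gene tomboy40 was counted 32, 10 and 11 times in WT and 289, 140 and 126 times in TetAXXC. The others were ttm2 and Tim17b2 of the inner membrane import machinery and the carriers Slc25A46b and Dic2. Dic2, a dicarboxylate carrier, had the most counts of the group, with 452, 149 and 196 in TetAXXC and 26, 9 and 5 in WT.

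Ion and solute transport held 6 genes, with the proton pump subunits Vha68-3 and Vha100-3, the sugar transporter sut4, the nucleoside transporter CNT1, the amino acid transporter relative Ntl and JYalpha. JYalpha, a sodium pump subunit that male fertility needs, was the only gene of the set on chromosome 4 (879 to 5039), and was counted 14, 2 and 0 times in WT and 210, 40 and 85 times in TetAXXC. The group of signalling enzymes held the male germline adenylyl cyclases ACXA and ACXC, gskt (a form of the kinase shaggy), the phosphatase Pp1-13C and CG14305 (Tssk). ACXC was counted 30, 7 and 11 times in WT and 413, 126 and 183 times in TetAXXC. The summed level of the enzymes was 6.95, 1.92 and 1.90 CPM in WT and 80.6, 24.4 and 33.0 CPM in TetAXXC, again highest in replicate 1 of each group.

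The cytoskeleton group of 6 genes held the actin-related gene Arp53D, the microtubule-depolymerising kinesin Klp59C, the dynein light chain Cdlc2, the actinin Actn3 and the gamma-tubulin complex genes CG7716 and CG18109 (t-Grip84 and t-Grip91). Arp53D, known from the male germline, was counted 20, 1 and 3 times in WT and 408, 74 and 193 times in TetAXXC. The chaperones Hsp60D and Hsc70-1 had TetAXXC means of 6.19 ± 4.36 and 5.70 ± 3.35 CPM (SD, n = 3). The remaining group of 3 genes was of the cytochrome P450 and UDP-glycosyltransferase families of detoxification enzymes. It contained Cyp6a13, the only gene of the set that was highest in TetAXXC replicate 2.

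**Figure D2:**
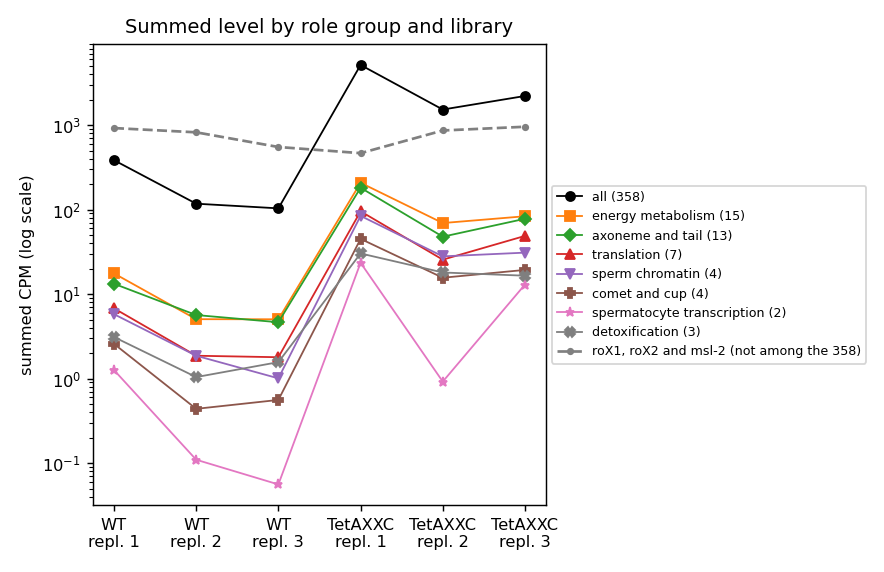
Summed level in CPM (log scale) of all 358 genes, of 7 role groups (number of genes in brackets) and of the male X-chromosome dosage genes roX1, roX2 and msl-2 in each library. Lines only join the points of a group: the spermatocyte transcription genes dip in TetAXXC replicate 2 (23.5, 0.922 and 12.98 CPM in replicates 1, 2 and 3), the detoxification genes vary least (30.3, 18.0 and 16.5 CPM), and the dosage genes are lowest in TetAXXC replicate 1 at 465 CPM.

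In the plot of summed levels, every role group was highest in replicate 1 of its genotype, but the size of the spread differed. Relative to TetAXXC replicate 1, spermatocyte transcription lay lowest in TetAXXC replicate 2, and detoxification varied least in TetAXXC. This spread inside the genotypes entered the rule only through the means, which a gene high in 1 library reaches more easily. Without TetAXXC replicate 1 the same limits found 157 genes, of which 156 are in the set. TetAXXC replicate 1 was the highest library of its group in 357 of the 358 genes, and in 316 of them the order was replicate 1, then 3, then 2. In WT, replicate 1 was the highest in 341 genes. The summed level was 3.37 times higher in TetAXXC replicate 1 than in replicate 2 and 2.33 times higher than in replicate 3. In WT replicate 1 it was 3.27 and 3.72 times higher than in replicates 2 and 3. Gene by gene, the log2 ratio of TetAXXC replicate 1 to the mean of replicates 2 and 3 had a median of 1.44 (interquartile range 1.33 to 1.60), a ratio of 2.71. Over the 8155 other genes with a TetAXXC mean of 5 CPM or more the median was 0.00 (interquartile range -0.07 to 0.08). Taken by replicate number, the summed level in TetAXXC was 13.4, 13 and 21.4 times that in WT for numbers 1, 2 and 3.

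The order of libraries was compared with that of male X-chromosome dosage genes and, further below, with that of genes of other tissues. The sum of roX1, roX2 and msl-2, which act on the male X chromosome, was 922, 821 and 550 CPM in WT and 465, 863 and 956 CPM in TetAXXC. In WT it was highest in replicate 1, as the 358 genes were, and in TetAXXC it was lowest in replicate 1, where the 358 genes were highest. Most of this sum came from roX1, with means of 649 CPM in WT and 650 CPM in TetAXXC, against 79.4 and 76.4 CPM for msl-2. Whether the sum follows the share of male brains in a library was not tested. Of these genes roX1 was counted 15212, 12669 and 8057 times in WT and 7170, 14419 and 15431 times in TetAXXC, and its groups overlapped. With edgeR 0 of the 3 were called, where 12.1% of all genes tested were called higher and 3.17% lower. None had an unadjusted p under 0.05 in edgeR, and DESeq2 and limma-voom called 0. For these other fits the share over all genes is not given here, and with 3 genes nothing is read from the counts. Since the RNA came from whole brains, fewer cells of a type and less RNA per cell cannot be told apart in any of these values.

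Not all genes of the set followed the common pattern in TetAXXC. With a ratio of at least 8 between TetAXXC replicates 1 and 2, a limit chosen after the values were seen, 14 genes were separated from the other 344. Their ratios began at 9.70, and the highest below the limit was 7.84. The 14 genes were CG34434, CG3927, tbrd-2, Pkd2, tbrd-1, nsr, CG5043, CG4021, CG12493, CG43077, CG5111, CG9777, RpL22-like and CG31213. CG34434 (FBgn0250904, chromosome X, 5614554 to 5616370, minus strand) was the extreme, with 498, 3 and 300 counts in TetAXXC against 5, 3 and 2 in WT. Its TetAXXC replicate 2 was as low as WT while its level in the other TetAXXC libraries was above the median of the set there. CG3927 had 320, 9 and 133 counts in TetAXXC, CG5043 had 549, 28 and 227, and nsr, a gene that spermatogenesis needs, had 214, 10 and 105. In TetAXXC replicate 3 these genes were not low, since the ratio of replicate 1 to replicate 3 ran from 1.32 to 2.87 with a median of 1.77, against a median of 2.35 over all 358 genes.

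**Figure D3:**
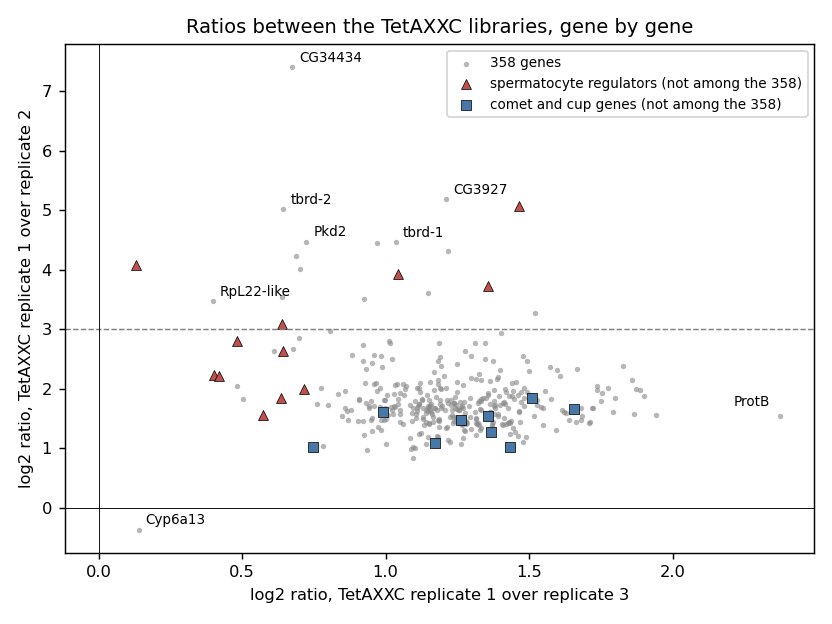
Log2 ratio of TetAXXC replicate 1 to replicate 2 against that of replicate 1 to replicate 3, for the 358 genes (grey), spermatocyte regulators (red triangles) and comet and cup genes (blue squares) outside the set, with a dashed line at the limit of 8-fold; comr, at 0 in replicate 2, is not drawn. Most genes lie near the medians of 1.70 and 1.23, 14 genes lie above the line, Cyp6a13 is the only gene below 0 on the vertical axis, and ProtB lies farthest to the right.

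The plot of ratios between TetAXXC libraries also holds genes outside the set. A list of 18 spermatocyte regulators, of which 17 were found and none is in the set, had 13 genes with at least 20 counts in TetAXXC replicate 1 and a WT mean under 5 CPM. In 12 of these the ratio of TetAXXC replicate 1 to replicate 2 had a median of 6.59 and ran from 2.96 to 33.6, and comr had 25, 0 and 5 counts. Beyond 8-fold lay 6 of the 13. The meiotic arrest gene aly had 45, 3 and 21 counts in TetAXXC, the zinc finger gene topi had 104, 8 and 39, the testis TAF gene sa had 66, 2 and 23, and its partner nht had 33, 2 and 29. The RNA-binding protein gene Rbp4, with 183, 22 and 113 counts in TetAXXC and 23, 29 and 40 in WT, was lower in TetAXXC replicate 2 than in every WT library. Of the 13 comet and cup genes that met the same limits, 4 of them in the set, none lay beyond 8-fold, and their ratios ran from 2.04 to 3.57 with a median of 2.76. Medians of the other lists, genes of the set included, were 3.19 for 12 sperm tail genes, 2.90 for 6 sperm chromatin genes, 3.31 for 11 spermatid mitochondria genes and 2.71 for 8 energy paralogs. Among these, fzo, the fusion protein of spermatid mitochondria, had 560, 48 and 244 counts in TetAXXC, and Tim17b1 had 158, 8 and 78. By these medians TetAXXC replicate 2 lay farther below replicate 1 in spermatocyte regulators than in the other lists. The difference was not tested, and the limits shape it. They require counts in replicate 1, the top of the ratio, and several regulators had few counts in replicate 2. The limit on the WT mean left out bol (2291, 1356 and 1906 counts in TetAXXC), achi (487, 452 and 426), mia (104, 117 and 107) and twe (387, 139 and 190).

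At the other end stood Cyp6a13 (FBgn0033304, chromosome 2R, 8570499 to 8572147, plus strand), a cytochrome P450 gene with a single exon. It was counted 15, 12 and 20 times in WT and 142, 187 and 124 times in TetAXXC. Alone among the 358 genes it was highest in TetAXXC replicate 2, and its WT libraries were not highest in replicate 1 either. In CPM the levels were 0.856 ± 0.238 in WT and 7.91 ± 1.49 in TetAXXC (SD, n = 3 each). The log2 ratio of TetAXXC replicate 1 to the mean of replicates 2 and 3 was -0.14, and the next lowest were 0.90 for CG15425, 0.95 for CG13442, 0.96 for CG4681 and 1.02 for CG11656. The highest were 2.15 for CG31213, 2.12 for CG3927, 2.08 for CG34124, 2.06 for CG5043 and 1.996 for CG13872. Cyp6a13 also had the lowest adjusted p of the set in edgeR, 0.00495, which is a description. Its neighbours on 2R varied. CG12780 (8551859 to 8552290) was counted 2, 11 and 1 times in WT and 26, 21 and 19 times in TetAXXC, about evenly over the TetAXXC libraries, with an edgeR adjusted p of 0.107. Cyp6a14 was counted 0, 2 and 0 times in WT and 0, 1 and 6 times in TetAXXC, and CG42326 was counted 63, 69 and 86 times in WT and 62, 20 and 111 times in TetAXXC. CG43183, farther along the arm at 8592195 to 8592969, was counted 3, 0 and 0 times in WT and 73, 19 and 23 times in TetAXXC, in the common order of libraries.

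Many of the named genes are copies of genes that every cell uses, which allows a comparison of levels within a family. For 44 genes of the set a namesake was found by name and textbook knowledge, 38 different genes in all, chosen after the values were seen. Levels are given here in CPM per kb of exon, which allows genes of different length to be compared. By group means the namesake was higher than its partner in all 44 pairs, even in TetAXXC, with a median ratio of 17.8 there. This direction was largely fixed by the choice of widely used genes as namesakes, and nothing is read from it. Act5C, the namesake of Arp53D, had 2164 ± 35.6 CPM per kb in WT and 2134 ± 59.1 in TetAXXC (SD, n = 3 each), and Arp53D had 0.309 and 8.60. RpL22 had 421 ± 19.1 and 416 ± 20.3, against 0.231 and 4.26 for RpL22-like. The closest pair by group means was Dic1 and Dic2, with 8.94 ± 0.0786 and 9.07 ± 0.273 for Dic1 and 0.447 and 8.73 for Dic2. The TetAXXC means per kb were thus nearly the same. The libraries of Dic2 differed widely, however, with 23.6, 7.63 and 10.6 CPM in TetAXXC before division by length.

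**Figure D4:**
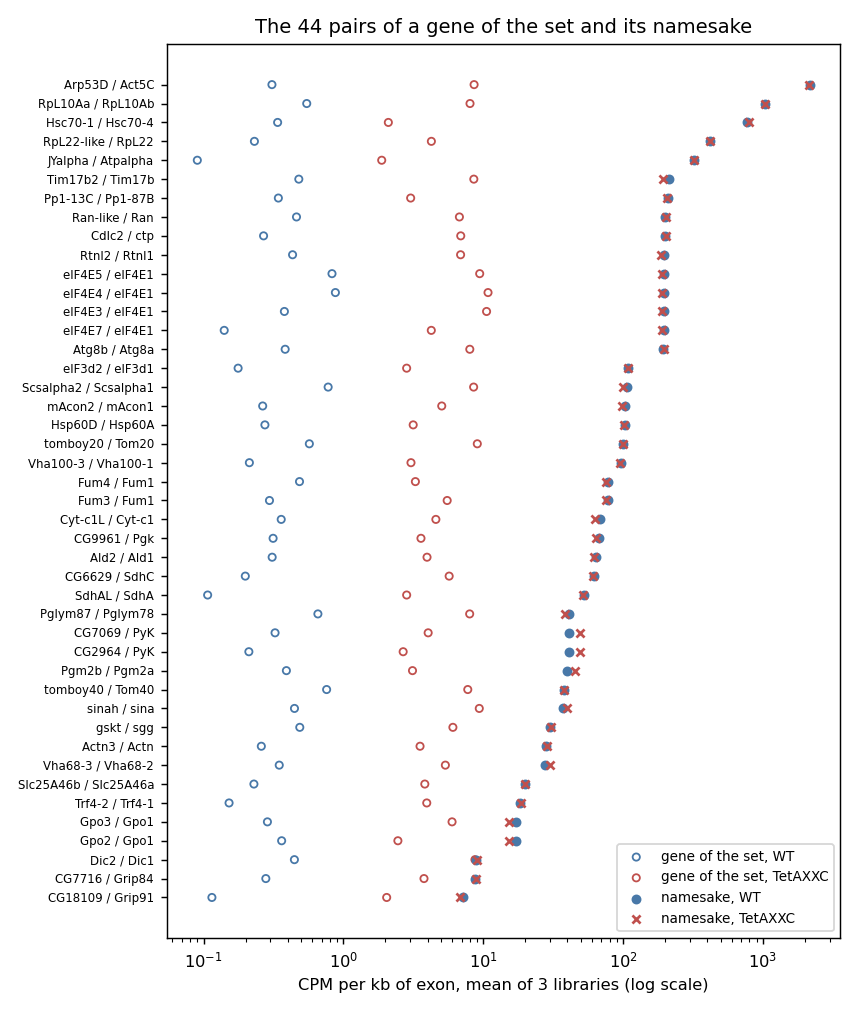
Level in CPM per kb of exon (log scale, mean of 3 libraries) of 44 genes of the set (open circles) and their namesakes (filled circles in WT, crosses in TetAXXC), with WT in blue and TetAXXC in red. The namesakes lie to the right in every pair, and their WT and TetAXXC levels nearly coincide, with log2 differences from -0.16 to 0.24.

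The namesakes themselves were not used by the rule. Their log2 fold changes in edgeR ran from -0.16 for Gpo1 to 0.24 for PyK, with a median of -0.02, and the plot of the 44 pairs shows the levels of the genotypes on top of each other. Of the 38 namesakes edgeR called 0 higher and 0 lower, where 12.1% and 3.17% of all genes were, and 3 had an unadjusted p under 0.05. DESeq2 called 1 higher and 1 lower, limma-voom called 0, and edgeR with the replicate number as a block called 1 higher. The share of all genes called by the latter fits is not given here. Pyruvate kinase, PyK, had 41.0 ± 3.24 CPM per kb in WT and 48.9 ± 2.24 in TetAXXC (SD, n = 3 each), with an edgeR adjusted p of 0.0506. The sodium pump gene Atpalpha, the namesake of JYalpha, had 323 ± 26.8 and 323 ± 20.8 CPM per kb. On the chromosomes, 14 of the namesakes are X-linked, with 15 partners in the set, and all 15 partners lie on other chromosomes. Of the whole set only 11.7% lay on the X, and the pairs were chosen by name, so nothing is read from this.

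The 358 genes were spread over the genome. On the arms 2L, 2R, 3L, 3R, 4 and X lay 93, 60, 78, 84, 1 and 42 of them. Chromosome 2L held 26.0% of the set and 19.0% of the 13883 protein-coding genes of the table, and the X chromosome held 11.7% and 15.6%. In the annotation, 356 of the 358 are protein-coding and 2 were not found, CG14579 and CG17098. Gene structure was simple in many of them. A single exon was annotated for 107 of 356 genes, or 30.1%, against 15.4% of protein-coding genes, and the median summed exon length of a gene was 1508 bp against 1734 bp. The set was chosen on expression, and such differences from all genes were not tested.

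A large share lay inside other genes. Of the 358 genes, 106 (29.6%) fell within the span of another protein-coding gene, 71 of them on the opposite strand and 35 on the same strand. Of all protein-coding genes, 10.6% did so, and among those tested 8.05%. The hosts numbered 91, of which 82 had a WT mean of 10 CPM or more, and they include genes of neuronal wiring. CG32450 lies in the teneurin gene Ten-m, CG32655 in Ten-a, boly in the POU factor gene pdm3, TTLL6A in smooth (sm), and both Scsalpha2 and CG15025 in dystrophin (Dys). Ten-m had 919 ± 31.7 CPM in WT and 885 ± 48.3 in TetAXXC (SD, n = 3 each), and its guest CG32450 had means of 0.387 and 7.17 CPM.

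**Figure D5:**
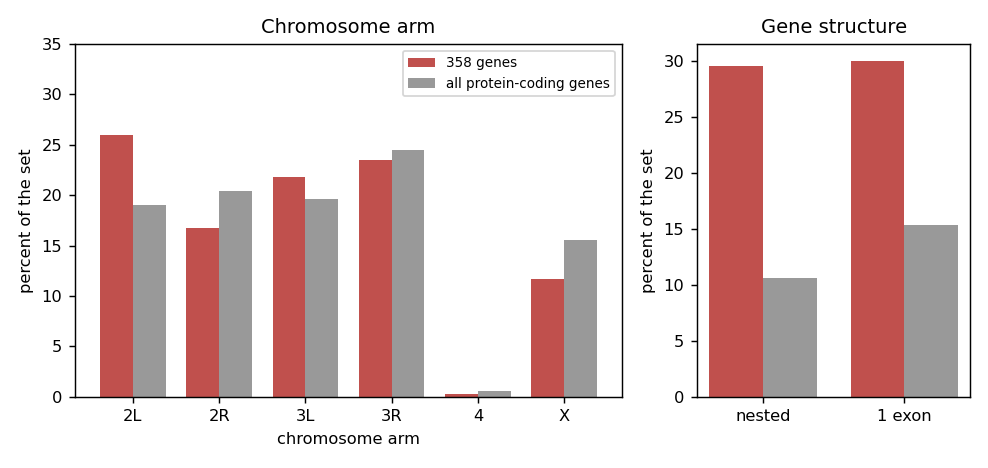
Share in percent of the 358 genes (red) and of all 13883 protein-coding genes (grey) on each chromosome arm, and the share nested in another protein-coding gene or with 1 annotated exon (356 genes of the set). The set has 29.6% nested and 30.1% single-exon genes, against 10.6% and 15.4%.

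The plot of gene position sets these shares side by side. Of 88 hosts tested, edgeR called 0 higher and 6 lower, where 12.1% and 3.17% of all genes were, and 14 had an unadjusted p under 0.05. DESeq2 called 0 higher and 8 lower, limma-voom 0 and 3, and the fit with the replicate block 2 and 10. For these 3 fits the share over all genes is not given here. The median log2 fold change of the hosts was -0.03. The 6 lower hosts were btsz, axo, Hs6st, nuf, fipi and rols. btsz, a synaptotagmin-like protein gene and host of CG3610, had 280 ± 6.21 CPM in WT and 198 ± 11.7 in TetAXXC (SD, n = 3 each), a log2 difference of -0.51 at an edgeR adjusted p of 0.00922. axo, host of TTLL1B, had 260 ± 5.73 CPM in WT and 223 ± 2.23 in TetAXXC (SD, n = 3 each), a log2 difference of -0.23 at an edgeR adjusted p of 0.0167. Exons of 41 genes of the set overlapped exons of another gene on the opposite strand and those of 14 overlapped on the same strand. The libraries kept strand, but the strand setting of the counting is not given in the sources used here, so the counts of these genes are less certain than those of the 306 without overlap.

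Some genes of the set were neighbours of each other. With starts within 10 kb and no other protein-coding gene start between them, 38 genes (10.6%) formed 19 pairs, 14 of them with both genes on the same strand. A matching share for other sets of genes is not given here, so clustering is not read from this. Besides ProtA and ProtB these included djl with CG1988 on chromosome 3R, CG13243 with Tektin-A on 2L, and CG17083 with bb8 on 3R. In djl the TetAXXC counts were 295, 94 and 142, and in CG1988 they were 547, 173 and 219, with the same order of libraries.

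Genes known from the testis that lie outside the set were examined as well. The lists of sperm and spermatocyte genes held 44 genes that passed the filter on low counts and are not in the set, and edgeR called 30 of them higher. This count is a description beside the background of 12.1%, since the lists were written with earlier results of these data known. Some of these genes, such as klhl10 with 122, 34 and 46 counts in TetAXXC and 5, 2 and 3 in WT, passed the filter only through their TetAXXC counts, so that a lower call was not open to them. The count of 30 changed with the libraries used, with 0 called without WT replicate 2 or without WT replicate 3, and limma-voom called 0. For those fits too the share over all genes is not given here. The sperm tail gene loopin-1, an aminopeptidase relative, was counted 262, 76 and 44 times in WT and 3758, 1174 and 1479 times in TetAXXC, and missed the set through its WT level. The sperm tail gene dj was counted 53, 10 and 10 times in WT and 548, 218 and 238 times in TetAXXC. The cup gene w-cup was counted 108, 15 and 15 times in WT and 1377, 508 and 551 times in TetAXXC. In each, replicate 1 was the highest library of both groups.

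By list, 9 of 11 comet and cup genes outside the set were called higher, 6 of 7 sperm tail genes, 3 of 3 sperm chromatin genes, 6 of 8 spermatid mitochondria genes, 3 of 4 energy paralogs and 3 of 11 spermatocyte regulators. Among all genes tested 12.1% were called higher. That share is not a like background, since some list genes passed the filter only through their TetAXXC counts. The comet gene sunz, for example, had 59, 19 and 18 counts in TetAXXC and 2, 0 and 2 in WT. With limma-voom 0 of the genes of these lists were called, as with edgeR without WT replicate 2 or without WT replicate 3. Of the spermatocyte regulators, 6 of the 17 found did not pass the filter on low counts. The comet genes cola and swif had 0 counts in every library. Among 10 early germ cell genes, 8 were tested and 1, bgcn, was called higher, a share near that of all genes. The gene bgcn, a regulator of germ cell differentiation, had 110, 32 and 66 counts in TetAXXC against 17, 13 and 20 in WT. The germ cell helicase gene vas was counted 9, 12 and 21 times in WT and 54, 22 and 37 times in TetAXXC, with an edgeR adjusted p of 0.134. The differentiation factor bam was counted 3, 0 and 5 times in WT and 8, 11 and 30 times in TetAXXC. Its highest library was replicate 3, unlike the genes of the set.

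Markers of other tissues that a dissected brain could carry were examined in the same way. Of all genes tested, edgeR called 12.1% higher and 3.17% lower, and for the other fits this share is not given here. Of 10 accessory gland genes, 1 passed the filter and was not called, and 3 had 0 counts in every library. DESeq2 tested 7 of them, of which 2 had an unadjusted p under 0.05 and 0 were called. The list summed to 1.53, 1.04 and 1.23 CPM in WT and to a higher 2.14, 2.41 and 2.55 CPM in TetAXXC. Fat body genes summed to 1636, 1799 and 1221 CPM in WT and 1055, 1508 and 1027 CPM in TetAXXC, with 0 of 7 called higher by edgeR and 2 called lower, Fbp1 and Fbp2. With the replicate block 4 fat body genes were called lower, and with limma-voom 1. Muscle genes summed to 145, 316 and 155 CPM in WT and 146, 195 and 190 CPM in TetAXXC and were highest in WT replicate 2, where the set was low. Hemocyte genes summed to between 296 and 330 CPM and neuronal genes to between 3135 and 3686 CPM in the 6 libraries. None of the 7 muscle, 5 hemocyte and 7 neuronal genes tested was called by edgeR, where 1 neuronal gene had an unadjusted p under 0.05. DESeq2 called 1 neuronal gene lower, limma-voom called 0, and edgeR with the replicate block called 1 muscle gene lower. Glial genes summed to between 862 and 960 CPM, with 3 of 6 called lower by edgeR and 1 by limma-voom. None of these sums had the order of libraries seen in the 358 genes in both genotypes. The lists of sperm and spermatocyte genes outside the set did have it in TetAXXC, such as 455, 143 and 200 CPM for the sperm tail genes and 228, 116 and 179 CPM for the spermatocyte regulators. The exception in TetAXXC was the energy paralogs, which hold the abundant Gapdh2 and summed to 220, 210 and 200 CPM. In WT the energy paralogs summed to 190, 202 and 208 CPM and the spermatocyte regulators to 97.4, 72.8 and 96.1 CPM, also unlike the set, while the sperm tail genes summed to 42.2, 20.3 and 17.6 CPM in the order of the set. The part of male germline RNA in these counts was not tested.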

How the data were processed

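RNA was measured in 3 WT and 3 TetAXXC libraries of pupal brains. The authors deposited 1 table of read counts per gene, with whole-number counts that were not normalised. Per the submitters' processing notes, Trimmomatic 0.39, HISAT2, SAMtools, featureCounts and DESeq2 were used, with BDGP6 and dm6 named as builds; the role and settings of each, strand included, are not given in the sources used here. Per the labels' protocols, poly(A) RNA was selected and second strands were marked with dUTP. Group and replicate number came from the sample titles. Totals were 17861742 to 19521285 counts.

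CPM used the column sum. Counts were tested with edgeR 4.0.16 in R 4.3.3 (filterByExpr minimum count 10 and total 15, TMM, glmQLFit and glmQLFTest, genotype as the only term) over 11198 genes, with Benjamini-Hochberg adjustment and a threshold of 0.05. The script was tested on simulated data. DESeq2 1.42.0, limma-voom (limma 3.58.1), other filters, each library left out and the replicate block were alternatives. Replicates of a group differed by more than sampling noise (chi-square per degree of freedom 6.94 to 17.8), so all 6 libraries were kept. Libraries with the same replicate number deviated together from their group means (correlations across 11198 genes of 0.652, 0.419 and 0.344 for numbers 1, 2 and 3), and the numbers were taken to pair the libraries on this ground. The ground is weaker for number 3, since WT replicate 3 also had a correlation of 0.230 with TetAXXC replicate 2. The main fit did not use this pairing, and the replicate block did.

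Gene structure came from the Ensembl 115 annotation of BDGP6, in which 355 of the 358 genes had the start and end of the deposited table. The genes named are the 12 most abundant, the 5 highest and 5 lowest in the ratio of TetAXXC replicate 1 to the others, the nearest to each limit, and those on gene lists; other names, role groups and namesakes were chosen after their values were seen. The set, the lists and the tests were chosen with earlier results of these data known. Promoter and protein sequences were not used here.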

Additional observations from a re-analysis of the deposited data

How the results depend on the processing

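Depth limits the WT values, since the median gene of the set had 31 counts over all WT libraries together, and libraries of a group differed beyond counting error. The number of genes found by the limits was 157 with a WT mean under 0.5 CPM, 609 with a TetAXXC mean of 3 CPM or more, 77 with 10 CPM or more and 7 with every library past its limit. With a library left out it ran from 157 without TetAXXC replicate 1 to 454 without TetAXXC replicate 2, and of the 157 genes 156 were in the set. Replicates 2 and 3 alone gave 244 genes, 156 of them in the set, and number 1 alone gave 411, with 164 in the set. These last choices, those for the lists and those for the 8-fold limit were made after seeing the data.

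Of the 358 genes edgeR called 343, limma-voom called 1, and with a library left out edgeR called from 1 to 352. Of the 44 tested genes of the sperm and spermatocyte lists outside the set edgeR called 30 higher, limma-voom called 0, and with a library left out edgeR called from 0 to 38, and 19 without TetAXXC replicate 1. A fit that used the pairing of replicate numbers (replicate block) called 356 genes of the set and 36 genes of the lists. DESeq2 called 354 and 35. How many of all genes each of these other fits called is not given here, so these counts have no background beside them. The median log2 ratio of TetAXXC replicate 1 was 1.70 against replicate 2 alone and 1.23 against replicate 3 alone, where the mean of both gave 1.44. The group of 14 genes beyond 8-fold became 32 with a log2 limit of 2.5 and 12 with one of 3.5. Other scalings left the set at 352 or 356 genes and the ratio at 1.45, and the number of neighbouring genes ran from 28 to 54. The cause of these changes was not tested. The planned comparisons of promoter elements and of closest proteins were not run.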
